A study of Saccharomyces cerevisiae with 8 samples.

Results

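Tightly paired ACA sites are cleavage sites whose nearest listed neighbour on the same strand starts 30 nt or less away. After 1 line per chromosome, position and strand was kept, 13768 of the 76330 listed sites (18.0%) met this rule, and the other 62562 sites did not. The 13768 sites formed 6884 pairs. Every one of them lay in exactly 1 pair, and no run of 3 sites was found. Of the pairs, 6848 had both sites in the same gene model and 36 did not, and members lay in 3626 of the 6020 gene models with a site. The site nearer the 5′ end of the RNA is called the upstream site and the other the downstream site, and a distance is counted from the start of one site to the start of the other.

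The libraries were made from polyadenylated RNA of diploid SK1 yeast, a strain background that sporulates well, grown in YPD at 30 °C and then induced to enter meiosis. WT cells (MAT a/alpha) and IME4-KO cells, called KO here, both carried homozygous lys2, ho::LYS2 and ndt80::LEU2 alleles, and KO cells were homozygous for ime4::HIS3 as well. Each genotype was measured in input RNA and in RNA recovered with an antibody (IP), with 2 biological replicates per group and 8 libraries in all. NDT80, the activator of middle meiotic genes, was thus disrupted in both genotypes, so the comparison of WT with KO was made without it. How long after induction cells were taken is not stated in the sources used here.

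MazF is a bacterial ribonuclease that cuts RNA in front of the bases ACA and leaves the site uncut when its first A carries an N6-methyl group (m6A). In budding yeast m6A is placed during meiosis by a complex built around Ime4, mostly on an A that follows a purine and precedes a C. A methylated ACA is therefore read as a site that is cut less. In a tight pair, the readings of neighbouring sites on the same RNA can be set side by side. The value of each site and library was the authors' normalized cleavage efficiency, a fraction from 0 to 1, and a higher value is read here as more cutting, from the name of the quantity alone.

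The distances themselves carried structure. No pair lay 1 nt apart, and the shortest distance, 2 nt, held 579 pairs (8.41%). At this distance the sites share a base and read ACACA, so the base in front of the downstream ACA is always C. The next distance, 3 nt, held 331 pairs (4.81%) that read ACAACA, where the base in front of the downstream site is A. Each distance from 4 to 30 nt held 167 to 264 pairs, with 224 pairs just inside the limit at 30 nt and 225 just outside it at 31 nt. Of the listed sites, 76326 had no listed neighbour within 59 nt on at least 1 side and 4 had neighbours under 60 nt on both sides. Each pair was thus bounded by stretches without a listed site. The median distance from a member to its partner was 15 nt, and the next listed site on its other side lay at least 60 nt away in nearly all cases. That free side lay towards the 5′ end for upstream sites and towards the 3′ end for downstream sites. Listed pairs rose from 207 at 59 nt to 867 at 60 nt. Whether a selection of sites for the list set this limit was not tested. Other ACA sequences between or around the listed sites were not analysed here.

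**Figure D1:**
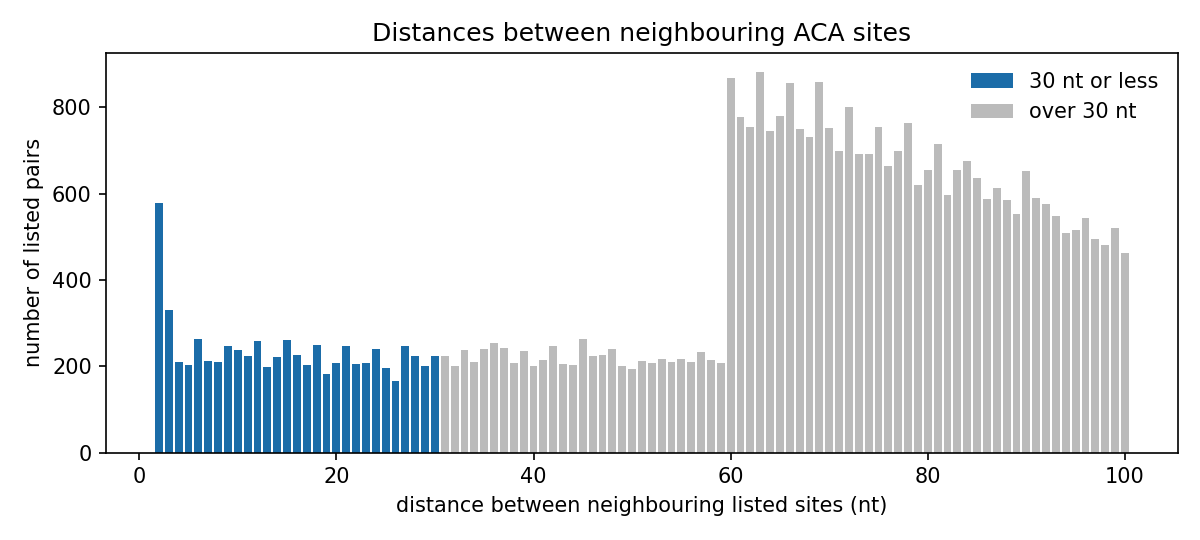
Number of neighbouring listed pairs (vertical axis) at each distance from 2 to 100 nt (horizontal axis), with pairs 30 nt or less apart in blue and pairs over 30 nt apart in grey. The bars at 2 nt (579 pairs) and 3 nt (331 pairs) stand above the 167 to 264 pairs at each distance from 4 to 30 nt, and the grey bars from 60 nt on are far taller than those from 31 to 59 nt.

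Members lay slightly later than other sites along the stretch from the start of a gene model to its last listed site. When this stretch was cut into 5 equal parts, the first held 9.40% of members and 11.9% of other sites, the fourth 23.6% and 21.6%, and the last 30.0% and 29.1%. The last listed site of each model falls in the last part by construction, and the full length of the models was not used. Among single genes, ACC1, which encodes acetyl-CoA carboxylase, had the most members, 22 of its 71 listed sites. It was followed by CDC39, the scaffold of the Ccr4-Not complex, with 20 of 63, and ECM29, a proteasome-associated protein, with 20 of 62. HMG2, an HMG-CoA reductase of sterol synthesis, had 17 members among only 38 sites.

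Between 34.8% and 83.0% of members were measured in a library, against 36.6% to 81.6% of the other sites, and the direction of the difference followed the fraction. Members were measured more often than others in all 4 input libraries, by 1.15 to 1.70 percentage points, and less often in all 4 IP libraries, with differences of -1.85 to -0.823 points. Over the 8 libraries these averaged to 0.0696 points (exact sign-flip test over libraries, two-sided, p = 0.891). All 8 libraries measured 2933 members (21.3%) and 14428 other sites (23.1%). Both sites of 821 pairs (11.9%), in 635 gene models, were measured in every library, and these are the tested pairs below. A further 1291 tested members had a partner that was missing in some library. The IME4 gene served as the check of the genotype labels: of its 27 listed sites, 8 of them members, WT libraries measured 16 to 24 and KO libraries 0 to 2.

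Where a library measured only 1 site of a pair, which site was missing differed between WT and KO libraries. In WT libraries the measured site was the upstream one in 50.6% to 51.5% of these pairs. In KO libraries it was the upstream one in 59.8% to 62.6%, so the downstream site was missing more often. The groups did not overlap, and the mean difference was -10.1 percentage points (WT minus KO). Its exact p was 0.0556 when genotype labels were permuted within input and within IP, the smallest p that this permutation gives. Input and IP labels were permuted independently. If input and IP of a replicate share a culture, 2 WT and 2 KO replicates allow no exact p under 0.333. The same limit holds for each later exact p of 0.0556. Pairs 31 to 59 nt apart gave -9.06 points, and neighbours over 100 nt apart gave 4.89 points, the opposite direction.

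Members were read as cut slightly more than other sites. Over sites measured in every library, the median efficiency of members was 0.657 to 0.697 and that of other sites 0.606 to 0.660. The difference was positive in 8 of 8 libraries, at 0.0251 to 0.0821 with a mean of 0.0455 (exact sign-flip test over libraries, two-sided, p = 0.0078, the smallest it can give). All libraries read the same sites, so this test measures agreement between libraries and not the spread between sites. With input and IP averaged within each genotype and replicate, 4 values remained and the smallest p was 0.125. In the 821 tested pairs the excess did not hold at both sites. In each KO library the upstream and downstream medians, 0.607 to 0.626 and 0.526 to 0.544, lay below the 0.620 to 0.653 of other sites. In each WT library the upstream median lay below that of other sites and the downstream median above it.

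Sites of a pair tended to be read alike. Across the 821 tested pairs, upstream and downstream efficiency within a library correlated at 0.334 to 0.421 (Pearson), given as a description because the sites share a library and often a transcript. It was 0.101 to 0.208 at 31 to 59 nt and -0.151 to -0.0331 at 60 to 100 nt. The likeness was loose even so: the median absolute difference between the sites of a pair was 0.208 to 0.236.

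The order of the sites within a pair differed between WT and KO libraries. In WT libraries the downstream site was read as cut more than the upstream one. The median upstream efficiency was 0.581 and 0.578 in WT input and 0.600 and 0.613 in WT IP, and the median downstream efficiency was 0.717 and 0.724 in WT input and 0.666 and 0.674 in WT IP. In KO libraries the medians stood the other way round, with 0.607 and 0.617 upstream in input, 0.625 and 0.626 upstream in IP, 0.526 and 0.532 downstream in input and 0.544 and 0.539 downstream in IP. The downstream site was the higher one in 57.2% to 63.3% of pairs in WT libraries and in 47.6% to 49.6% in KO libraries.

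Taken pair by pair, the median of downstream minus upstream was 0.0755 and 0.0796 in WT input and 0.0445 and 0.0582 in WT IP. In all 4 KO libraries it was 0, because 0.974% to 3.53% of pairs held the same value at both sites and these lay at the middle of the distribution, and the mean was -0.0226 to -0.0335. WT exceeded KO by 0.0644 on average and no WT library overlapped a KO library (exact permutation of genotype within input and within IP, two-sided, p = 0.0556, the smallest this permutation gives). Over all 8 libraries the downstream excess averaged 0.0322 and had a sign-flip p of 0.125, or 0.5 over the 4 means of input and IP. Its positive medians came from the 4 WT libraries alone. Of 20 alternatives, 1 changed this result: without sites of a mean under 0.1, the exact sign-flip p was 0.0156 (mean 0.0571). Another alternative gave the lowest mean, -0.00089, so no general downstream excess is read from this test. When each library was read over all the pairs it measured, WT minus KO was 0.0543.

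The shift between WT and KO libraries varied with distance and was not particular to pairs within 30 nt. It was 0.266 at 2 nt, 0.0886 at 3 nt, 0.0503 at 4 to 30 nt and 0.0444 at 31 to 59 nt. Beyond that it changed sign, to -0.0354 at 60 to 100 nt and -0.0465 over 100 nt, each with the same smallest exact p of 0.0556. In each of these bands WT and KO libraries ordered neighbouring sites differently, and the direction turned between the bands that end at 59 nt and start at 60 nt. The number of listed pairs rose at the same distance, from 207 at 59 nt to 867 at 60 nt. Any link between the turn and this limit of the list was not tested. Genotype and any other difference between the WT and KO libraries cannot be told apart from these values.

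**Figure D2:**
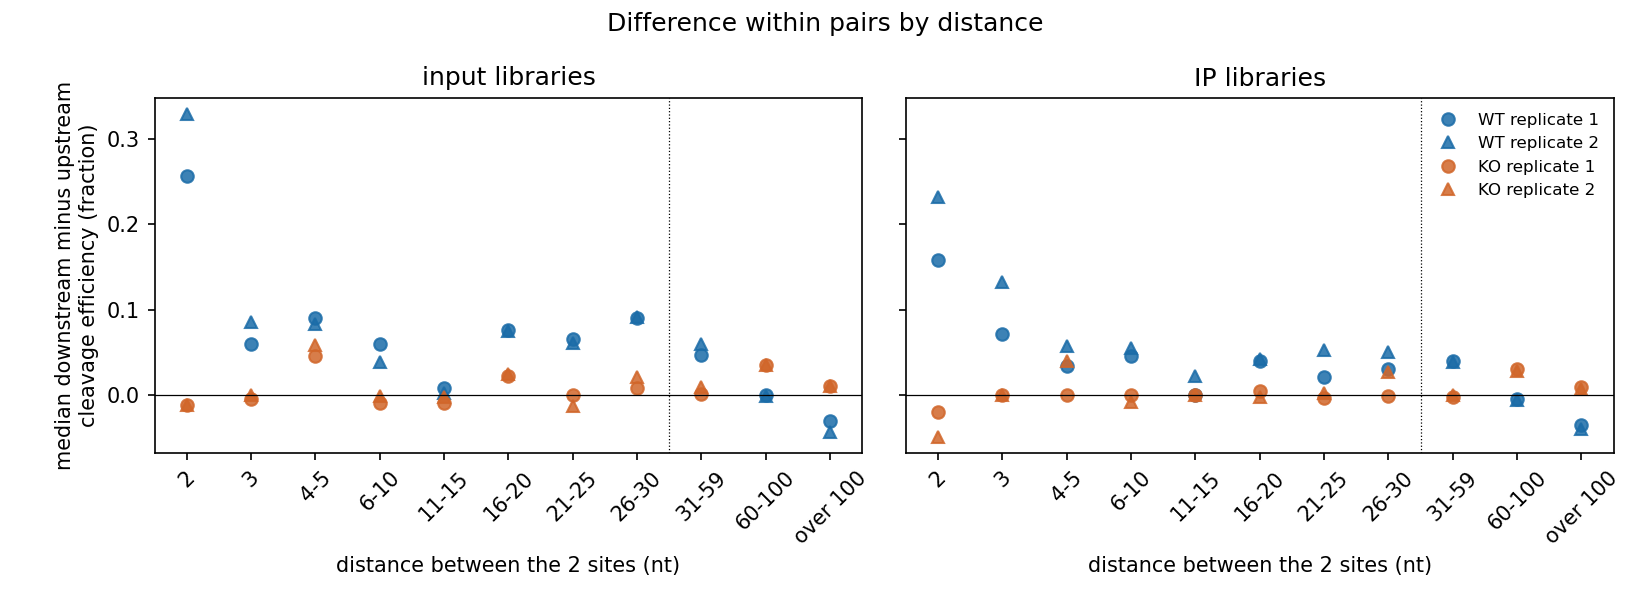
Median of downstream minus upstream cleavage efficiency (fraction, vertical axis) over pairs measured in all 8 libraries, by distance in nt (horizontal axis), with 1 point per library in input (left) and IP (right), WT in blue and KO in orange. The dotted line marks the 30 nt limit. WT points at 2 nt lie at 0.158 to 0.329 and KO points at -0.0484 to -0.0108, while at 60 nt and beyond the KO points lie above the WT points.

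Overlapping pairs, the ACACA sites 2 nt apart, showed the order most strongly. In these 81 tested pairs, each in a different gene model, the upstream site had a median efficiency of 0.474 and 0.419 in WT input and 0.594 and 0.571 in WT IP, against 0.717 and 0.729 in KO input and 0.773 and 0.760 in KO IP. Downstream medians were 0.914 and 0.907 in WT input and 0.899 and 0.895 in WT IP, against 0.688 and 0.660 in KO input and 0.677 and 0.681 in KO IP. WT and KO libraries overlapped at neither site. The upstream ACA was read as cut less in WT and the downstream ACA as cut more, although the sites share their middle A. The 81 pairs included repeat copies of ribosomal RNA genes, RDN18-1 with RDN18-2 and RDN25-1 with RDN25-2, which are not separate evidence. The RDN18-1 upstream site read 0.364 and 0.360 in WT input and 0.742 and 0.756 in KO input. RDN18-2 gave nearly the same values.

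Pair by pair, the change of downstream minus upstream between WT and KO was tested with limma over all 10958 neighbouring pairs measured in every library, with Benjamini-Hochberg adjustment and a threshold of 0.05. In IP, 57 of the 81 overlapping pairs passed (70.4%), with 54 positive, meaning that the downstream site gained on the upstream site in WT, and 3 negative. Over all tested pairs 51.9% passed, 23.9% positive and 28.0% negative. In input, 58 of the 81 passed and all 58 were positive (64 at an unadjusted p under 0.05, 0 of them negative), against 44.4% called over all tested pairs, 19.6% positive and 24.7% negative. Both IP and input called 44 of these pairs positive. The estimate was positive in 74 of 81 pairs in IP and in 74 of 81 in input, with a median of 0.258 in IP and 0.355 in input.

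Site by site, the upstream member of an overlapping pair was lower in WT in 28 of 81 pairs in IP and higher in 4, and the downstream member was lower in 2 and higher in 34. The share of upstream sites that were lower was 34.6%, against 15.2% over all neighbouring pairs, and that of downstream sites that were higher was 42.0%, against 24.4%. In input the upstream site was lower in 43 (53.1%, against 14.1%) and higher in 2, and the downstream site was lower in 3 and higher in 30 (37.0%, against 16.9%). Both changes together, upstream lower and downstream higher, passed in 7 pairs in IP (8.64%, against 4.01% of all neighbouring pairs) and 12 in input (14.8%, against 2.35%). When pairs were required only in the 4 input libraries and fitted alone, 258 overlapping pairs could be tested, and 162 were positive and 0 negative (limma, with 201 pairs at an unadjusted p under 0.05, 2 of them negative). The share over all neighbouring pairs in that fit is not given here, so 162 of 258 has no background beside it. Leaving out any 1 library left 45 to 59 overlapping pairs called in IP and 42 to 61 in input, with at most 5 negative.

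The 4 overlapping pairs that follow had the largest changes in input and were picked with their values in view. In SPO13, a regulator of the first meiotic division (chromosome 8, positions 127143 and 127145 on the plus strand, offsets +196 and +198), the upstream ACA read 0.664 and 0.515 in WT input, 0.840 and 0.829 in KO input, 0.736 and 0.739 in WT IP and 0.843 and 0.884 in KO IP. Its downstream ACA, 2 nt away, read 0.942 and 0.927 in WT input, 0.490 and 0.526 in KO input, 0.915 and 0.948 in WT IP and 0.523 and 0.694 in KO IP. WT values lay below KO values upstream and above them downstream in both fractions, and the pair difference changed by 0.67 (SE 0.0663, adjusted p = 0.000615) in input and 0.45 (SE 0.0663, adjusted p = 0.00168) in IP (limma).

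ZIP1, the central element of the synaptonemal complex (chromosome 4, positions 1033247 and 1033249 on the plus strand, offsets +2410 and +2412), had the same arrangement. Its upstream ACA read 0.351 and 0.379 in WT input, 0.653 and 0.669 in KO input, 0.592 and 0.602 in WT IP and 0.745 and 0.779 in KO IP. Its downstream ACA read 0.939 and 0.946 in WT input, 0.716 and 0.656 in KO input, 0.899 and 0.867 in WT IP and 0.782 and 0.730 in KO IP. The change was 0.55 in input (limma adjusted p = 0.000566) and 0.29 in IP (limma adjusted p = 0.00379). SDH9, a minor form of the succinate dehydrogenase flavoprotein, changed by 0.61 in input and 0.27 in IP (limma adjusted p = 0.000438 and 0.0051). YDR444W changed by 0.56 in input (limma adjusted p = 0.0102) and -0.06 in IP (limma adjusted p = 0.692), and 1 of its KO IP libraries, with an upstream value of 0.0440, stood apart from the other at 0.552.

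The 3 overlapping pairs called in the opposite direction in IP were in CIT1, REG1 and HNT1, and they too were picked with their values in view. CIT1 encodes mitochondrial citrate synthase (chromosome 14, positions 639332 and 639330 on the minus strand, offsets +1005 and +1007). Its upstream ACA read 0.460 and 0.409 in WT input, 0.699 and 0.690 in KO input, 0.680 and 0.694 in WT IP and 0.760 and 0.737 in KO IP. Its downstream ACA read 0.884 and 0.869 in WT input, 0.728 and 0.733 in KO input, 0.203 and 0.226 in WT IP and 0.738 and 0.698 in KO IP, so it was low in WT IP alone. The pair difference changed by -0.44 in IP and 0.41 in input (limma adjusted p = 0.000274 and 0.000713). REG1, a regulatory subunit of the Glc7 phosphatase, changed by -0.33 in IP and 0.44 in input (limma adjusted p = 0.00591 and 0.00272), with an upstream site at 0.707 and 0.694 in WT IP and 0.454 and 0.317 in KO IP. HNT1, a nucleotide hydrolase, had values of 0.229 or lower at both sites in all 8 libraries and changed by -0.20 in IP (limma adjusted p = 0.00572).

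Among all members, the number of sites that differed between WT and KO was close to the background. In IP, 1266 of 2933 tested members passed (43.2%), 532 lower and 734 higher in WT, against 41.3% of all 17361 tested sites, 17.0% lower and 24.3% higher. In input, 1015 passed (34.6%), 432 lower and 583 higher, against 32.2% of all tested sites, 15.6% lower and 16.6% higher. With KO input replicate 1 left out the input count fell to 546, and with KO input replicate 2 left out to 507.

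Calls were split differently among upstream and downstream members. In IP, 348 of the 1602 tested upstream members were lower in WT and 321 higher, with a median change of -0.0142, while 184 of the 1331 downstream members were lower and 413 higher, with a median change of 0.0444. As shares, 21.7% of upstream members were lower and 20.04% higher, and 13.8% of downstream members were lower and 31.03% higher. Over all tested neighbouring pairs, 15.2% of upstream sites were lower and 27.8% higher, and 18.6% of downstream sites were lower and 24.4% higher. In input, 324 upstream members were lower (20.2%) and 245 higher (15.3%), and 108 downstream members were lower (8.11%) and 338 higher (25.4%). The shares over all neighbouring pairs in input were 14.1% lower and 19.3% higher upstream, and 17.6% lower and 16.9% higher downstream. Pairs 31 to 59 nt apart had 17.5% lower and 24.8% higher upstream in IP, and 15.4% and 31.1% downstream. In input they had 18.0% and 16.9% upstream, and 9.47% and 23.0% downstream. A split of this kind was thus not particular to pairs within 30 nt.

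Within the 821 tested pairs, the difference between the sites changed in 400 pairs in IP (48.7%), 265 positive and 135 negative, and in 343 pairs in input (41.8%), 243 positive and 100 negative. These shares lay below the 51.9% and 44.4% over all neighbouring pairs, while the split leaned to positive. The lean was present without the overlapping pairs, at 211 positive and 132 negative of 740 in IP, and at 31 to 59 nt, at 217 positive and 155 negative of 739. The input count of 343 pairs dropped to 195 when KO input replicate 1 was left out, and to 192 when KO input replicate 2 was.

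Changes at the sites of a pair went the same way more often than opposite ways. In IP, both sites passed in the same direction in 135 of 821 pairs (16.4%), with 34 both lower and 101 both higher, and in opposite directions in 52 (6.33%). Over all neighbouring pairs, 2.87% were both lower, 6.4% both higher and 10.1% opposite. At 31 to 59 nt the shares were 5.14%, 10.1% and 6.36%, so this agreement was not particular to pairs within 30 nt. Of the 52 opposite pairs, 39 were lower upstream and higher downstream, 7 of them overlapping pairs, and 13 the reverse. These orders held 439 and 670 pairs over all neighbouring pairs, and 26 and 21 at 31 to 59 nt. In input, 16 pairs were both lower, 55 both higher and 33 opposite, of which 31 were lower upstream and higher downstream. These were 1.95%, 6.70% and 4.02%, against 2.54%, 3.17% and 6.24% over all neighbouring pairs. At 31 to 59 nt they were 2.17%, 5.41% and 4.19%. Of the 31 input pairs that were lower upstream and higher downstream, 12 were overlapping pairs. This order and its reverse held 258 and 426 of all neighbouring pairs in input, and 20 and 11 at 31 to 59 nt.

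Most pairs with a lower site had only 1. In IP, only the upstream site was lower in 96 pairs (11.7%) with no call at its partner, against 8.37% of all neighbouring pairs, and only the downstream site in 66 (8.04%), against 9.57%. Neither site passed in 257 pairs (31.3%), close to the 33.4% over all neighbouring pairs. The correlation of the change upstream with the change downstream was 0.273 across the pairs within 30 nt, 0.267 at 31 to 59 nt, -0.179 at 60 to 100 nt and -0.0644 beyond, as a description over pairs that share the 4 IP libraries.

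**Figure D3:**
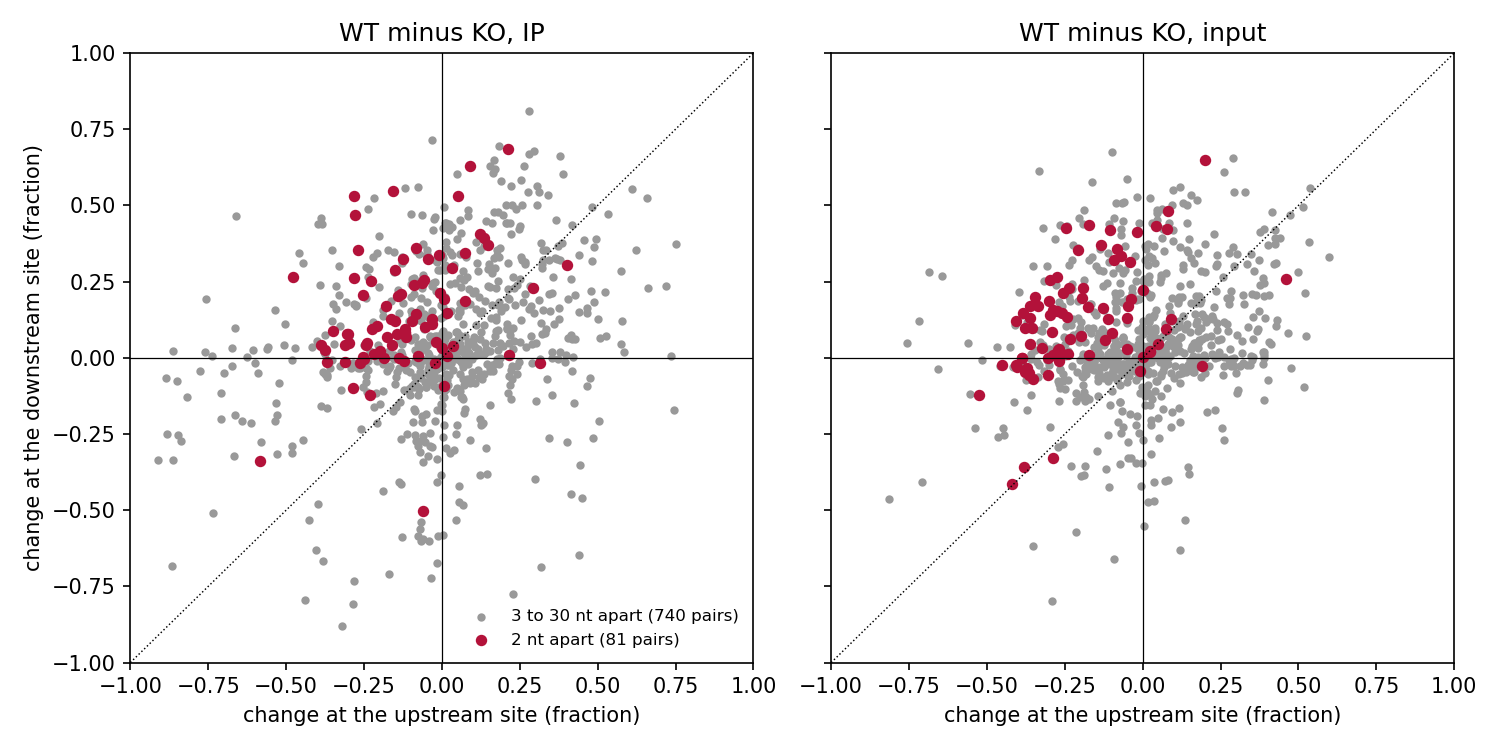
Change in cleavage efficiency between WT and KO (fraction, WT minus KO) at the upstream site (horizontal axis) and the downstream site (vertical axis) of the 821 tested pairs, in IP (left) and input (right). Red points are the 81 pairs 2 nt apart and grey points the 740 pairs 3 to 30 nt apart, the dotted line marks equal change, and 74 of the 81 red points lie above it in each panel.

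In some pairs a neighbour a few bases away moved against its partner. The pairs named from here on, other than those said to be chosen later, came from a rule of size that used the changes given for them, so these values describe the pairs. In ERG25, a methyl sterol oxidase of ergosterol synthesis (chromosome 7, positions 614193 and 614205 on the plus strand, offsets +281 and +293), the upstream site read 0.184 and 0.208 in WT input, 0.0389 and 0.0259 in KO input, 0.446 and 0.495 in WT IP and 0.0415 and 0.02 in KO IP. The downstream site, 12 nt on, read 0.940 and 0.960 in WT input, 0.874 and 0.928 in KO input, 0.295 and 0.191 in WT IP and 0.894 and 0.885 in KO IP. Only the WT IP libraries stood apart downstream, where the value dropped, and upstream the WT values lay above the KO values in both fractions. The change of downstream minus upstream was -1.09 (SE 0.061, adjusted p = 5.26e-05) in IP (limma), the most negative of the tested pairs within 30 nt, and -0.11 in input (limma adjusted p = 0.171).

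IDH1, a subunit of mitochondrial isocitrate dehydrogenase (chromosome 14, positions 570501 and 570496 on the minus strand, offsets +157 and +162), repeated this with sites only 5 nt apart. Its upstream site read 0.585 and 0.557 in WT input, 0.314 and 0.231 in KO input, 0.787 and 0.767 in WT IP and 0.255 and 0.398 in KO IP. The partner 5 nt on read 0.915 and 0.921 in WT input, 0.976 and 0.957 in KO input, 0.475 and 0.455 in WT IP and 0.922 and 0.927 in KO IP. Downstream, WT IP was the only group under 0.9, and the pair difference changed by -0.91 (SE 0.0584, adjusted p = 7.55e-05) in IP (limma). LPL1, a phospholipase of lipid droplets (+337 and +342), differed in input as well: its downstream site read 0.457 and 0.467 in WT input, 0.991 and 0.994 in KO input, 0.159 and 0.208 in WT IP and 0.967 and 0.951 in KO IP, low in all 4 WT libraries. Its pair difference changed by -1.003 in IP and -0.67 in input (limma adjusted p = 0.000101 and 0.000779).

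The other pairs with a downstream site that lost against its partner in IP were in SNZ1 (vitamin B6 synthesis), MAK21 (assembly of the large ribosomal subunit), MLP1 (nuclear pore basket), MHF2 (a histone-fold protein of DNA repair) and KEX1 (a carboxypeptidase of secreted peptide processing). Their changes ran from -1.005 in SNZ1 to -0.75 in KEX1. MHF2 showed the pattern at a lower level, with a downstream site at 0.831 and 0.737 in WT input, 0.458 and 0.489 in KO input, 0.0934 and 0.0225 in WT IP and 0.319 and 0.502 in KO IP. In MLP1 the WT IP replicates downstream, 0.370 and 0.729, were far apart, and the change of -0.86 (SE 0.153, adjusted p = 0.0037) (limma) had a correspondingly larger SE.

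The mirror image, an upstream site low in WT and a downstream site high, was led by HEF3, a translation elongation factor 3 with a close copy, so reads of the copies may have been mixed. Its pair (chromosome 14, positions 617450 and 617461 on the plus strand, offsets +2185 and +2196) read 0.548 and 0.568 in WT input, 0.774 and 0.826 in KO input, 0.153 and 0.263 in WT IP and 0.894 and 0.843 in KO IP upstream. The downstream site, 11 nt on, read 0.954 and 0.971 in WT input, 0.512 and 0.547 in KO input, 0.875 and 0.931 in WT IP and 0.527 and 0.348 in KO IP. WT and KO values did not overlap at either site in input or IP, and the pair difference changed by 1.13 (SE 0.0553, adjusted p = 5.05e-05) in IP and 0.67 in input (limma adjusted p = 0.000405).

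ERG6, a sterol methyltransferase (chromosome 13, positions 250469 and 250449 on the minus strand, offsets +467 and +487), had an upstream site at 0.824 and 0.812 in WT input, 0.915 and 0.910 in KO input, 0.209 and 0.112 in WT IP and 0.898 and 0.937 in KO IP. Its downstream site read 0.933 and 0.950 in WT input, 0.622 and 0.708 in KO input, 0.898 and 0.934 in WT IP and 0.741 and 0.706 in KO IP. The upstream site was far lower in WT IP and slightly lower in WT input than in KO, and the pair difference changed by 0.95 (SE 0.0635, adjusted p = 8.5e-05) in IP (limma). In CPR5, a cyclophilin of the endoplasmic reticulum (+754 and +776), the upstream site read 0.303 and 0.387 in WT input, 0.912 and 0.897 in KO input, 0.011 and 0.00922 in WT IP and 0.853 and 0.896 in KO IP, nearly uncut in WT IP. Its downstream site, 22 nt on, was at 0.112 or lower in all 8 libraries, so here the change of 0.89 came from 1 site. HPA2, a histone acetyltransferase (+406 and +415), was alike, with 0.219 and 0.178 in WT input, 0.903 and 0.927 in KO input, 0.00886 and 0.0105 in WT IP and 0.903 and 0.887 in KO IP upstream and at most 0.165 downstream.

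TEF1 and TEF2 encode the same elongation factor 1 alpha and gave nearly the same values at the same offsets (+1035 and +1061), so they are not separate evidence. The TEF1 upstream site read 0.824 and 0.791 in WT input, 0.799 and 0.784 in KO input, 0.394 and 0.343 in WT IP and 0.810 and 0.700 in KO IP. Its downstream site read 0.959 and 0.967 in WT input, 0.589 and 0.593 in KO input, 0.953 and 0.956 in WT IP and 0.484 and 0.506 in KO IP. The pair difference changed by 0.85 in TEF1 and 0.82 in TEF2 (limma adjusted p = 8.73e-05 and 7.83e-05). ATP2, the beta subunit of ATP synthase, changed by 0.83 (SE 0.118, adjusted p = 0.00137) (limma), and its WT IP replicates upstream, 0.689 and 0.365, were far apart. YNL194C, a membrane protein of the Sur7 family, had an overlapping pair (+643 and +645) that changed by 0.81 (SE 0.0941, adjusted p = 0.000599) (limma), with a downstream site at 0.459 and 0.429 in WT input, 0.219 and 0.243 in KO input, 0.832 and 0.666 in WT IP and 0.0528 and 0.384 in KO IP.

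In input the largest changes were in CDC48, COX4 and NHA1, where the upstream site was low in WT, and in FAS1, LPL1 and SNA3, where the downstream site lost. COX4, a subunit of cytochrome c oxidase (chromosome 7, positions 155025 and 155000 on the minus strand, offsets +728 and +753), read 0.258 and 0.272 in WT input, 0.589 and 0.606 in KO input, 0.484 and 0.526 in WT IP and 0.638 and 0.688 in KO IP upstream. Downstream it read 0.871 and 0.901 in WT input, 0.266 and 0.280 in KO input, 0.918 and 0.944 in WT IP and 0.407 and 0.368 in KO IP. The order of the sites reversed between WT and KO in both fractions, and the pair difference changed by 0.95 (SE 0.0472, adjusted p = 0.000164) in input and 0.70 in IP (limma adjusted p = 8.6e-05).

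CDC48, an ATPase of protein quality control (+2569 and +2578), had an upstream site at 0.266 and 0.257 in WT input, 0.944 and 0.953 in KO input, 0.0102 and 0.016 in WT IP and 0.842 and 0.857 in KO IP. Its downstream site read 0.643 and 0.636 in WT input, 0.295 and 0.424 in KO input, 0.0803 and 0.0815 in WT IP and 0.404 and 0.302 in KO IP, so that WT lay above KO in input and below it in IP. NHA1, a sodium-proton antiporter (+2770 and +2776), behaved alike, with 0.649 and 0.718 in WT input, 0.402 and 0.426 in KO input, 0.0474 and 0.0365 in WT IP and 0.497 and 0.259 in KO IP downstream. FAS1, the beta subunit of fatty acid synthase (+6278 and +6297), had a downstream site at 0.224 and 0.153 in WT input, 0.860 and 0.781 in KO input, 0.148 and 0.142 in WT IP and 0.809 and 0.680 in KO IP, low in WT in both fractions, beside an upstream site at 0.229 or lower throughout. SNA3, a vacuolar sorting protein, had an upstream site at 0.780 and 0.748 in WT input, 0.257 and 0.236 in KO input, 0.927 and 0.912 in WT IP and 0.323 and 0.364 in KO IP, high in WT.

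**Figure D4:**
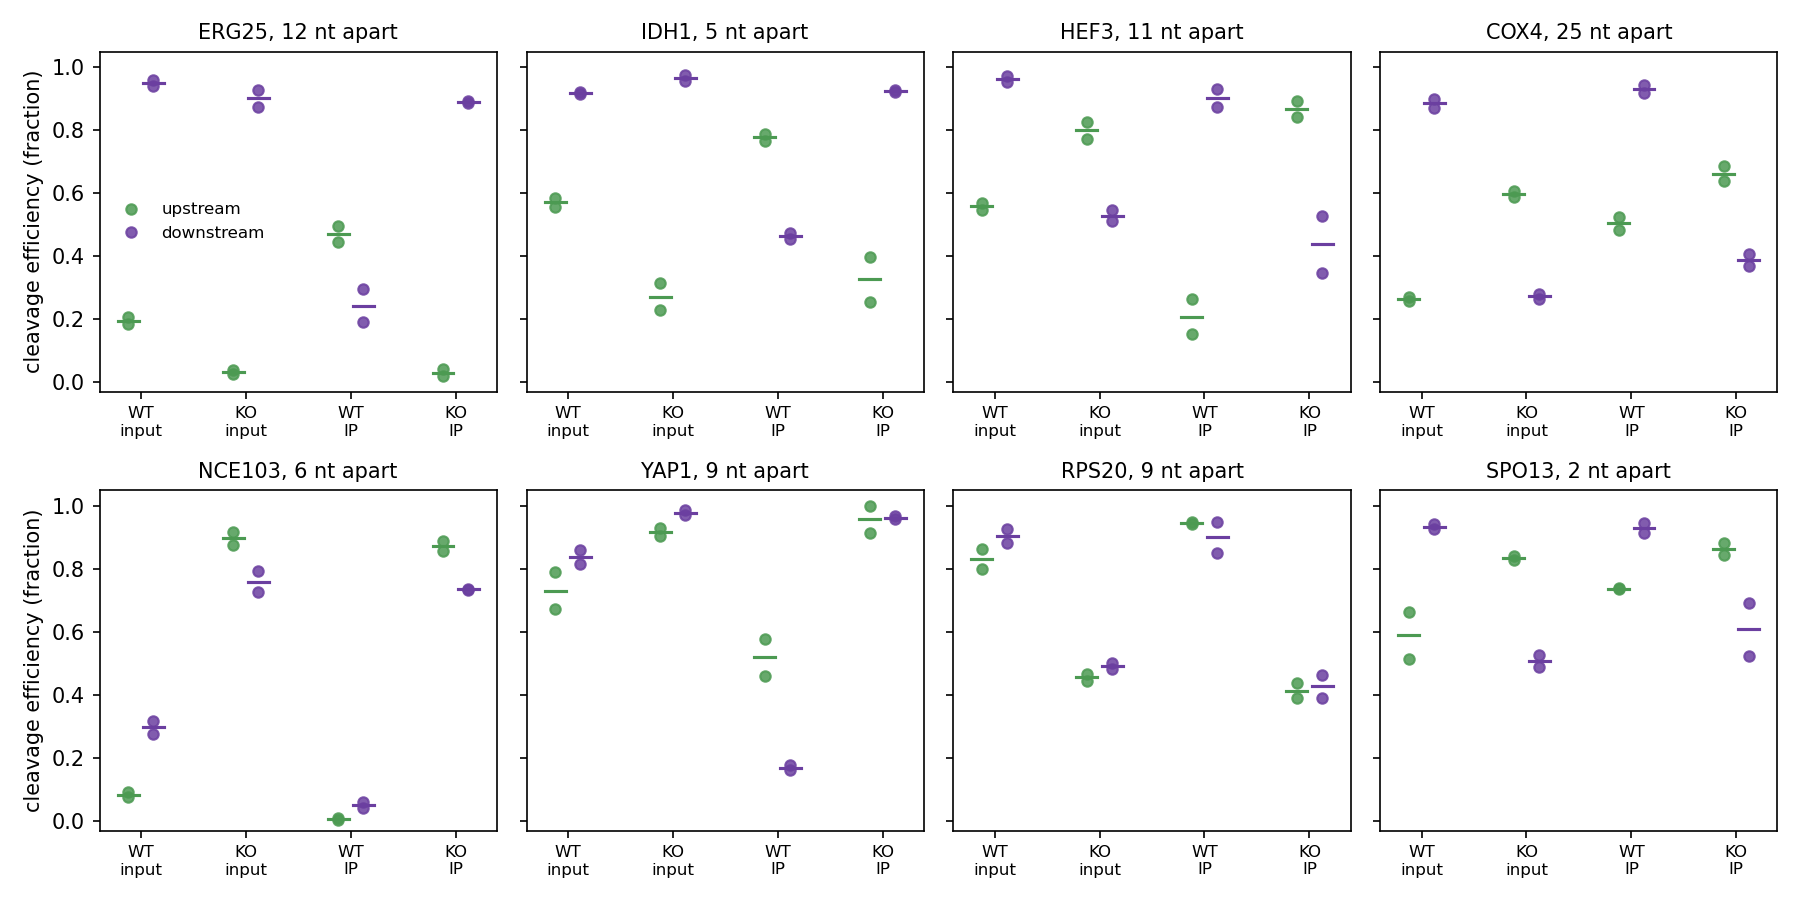
Cleavage efficiency (fraction, vertical axis) at the upstream (green) and downstream (purple) site of 8 pairs in WT and KO, input and IP, with 1 point per library and a bar at the mean of 2. In ERG25 and IDH1 the downstream site dropped in WT IP, in HEF3, COX4 and SPO13 WT and KO had opposite orders of the sites, in NCE103 and YAP1 both sites were lowest in WT IP, and in RPS20 both sites were higher in WT.

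Among the 34 pairs with both sites lower in WT IP, NCE103, the carbonic anhydrase gene, had the largest change at its less changed site. Its pair (chromosome 14, positions 572034 and 572040 on the plus strand, offsets +864 and +870) read 0.0918 and 0.0748 in WT input, 0.876 and 0.919 in KO input, 0.00425 and 0.0102 in WT IP and 0.889 and 0.858 in KO IP upstream. The downstream site, 6 nt on, read 0.317 and 0.278 in WT input, 0.727 and 0.793 in KO input, 0.0401 and 0.0619 in WT IP and 0.733 and 0.737 in KO IP. At both sites the order was WT IP lowest, then WT input, then both KO groups, with no overlap between WT and KO. The changes in IP were -0.87 (SE 0.0264, adjusted p = 4.93e-05) upstream and -0.68 (SE 0.0315, adjusted p = 9.93e-05) downstream (limma).

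HMG2 had a pair (chromosome 12, positions 1031594 and 1031605 on the plus strand, offsets +1971 and +1982) with 0.703 and 0.670 in WT input, 0.951 and 0.932 in KO input, 0.238 and 0.225 in WT IP and 0.967 and 0.968 in KO IP upstream. The site 11 nt downstream read 0.933 and 0.947 in WT input, 0.989 and 0.995 in KO input, 0.540 and 0.443 in WT IP and 1.000 and 1.000 in KO IP, where the KO values stood at or near the ceiling of the scale and gave no measure of replicate spread. In YAP1, the oxidative stress regulator (+1373 and +1382), the downstream site fell further, with 0.862 and 0.815 in WT input, 0.971 and 0.987 in KO input, 0.161 and 0.177 in WT IP and 0.958 and 0.968 in KO IP. Its upstream site read 0.672 and 0.791 in WT input, 0.930 and 0.904 in KO input, 0.578 and 0.460 in WT IP and 0.914 and 1.000 in KO IP. CDC37, an Hsp90 co-chaperone (+1493 and +1499), changed by -0.40 upstream and -0.48 downstream, and the difference between its sites did not pass (limma adjusted p = 0.235). NYV1, a vacuolar SNARE, changed by -0.38 and -0.67. The overlapping pair of IES2, a subunit of the INO80 complex, changed by -0.58 upstream and -0.34 downstream, and it was the 1 overlapping pair with both sites lower in IP.

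Both sites were higher in WT IP in 101 pairs. RPS20, a protein of the small ribosomal subunit (+410 and +419), read 0.863 and 0.799 in WT input, 0.444 and 0.468 in KO input, 0.943 and 0.948 in WT IP and 0.439 and 0.389 in KO IP upstream. Downstream the values were 0.881 and 0.928 in WT input, 0.502 and 0.481 in KO input, 0.852 and 0.949 in WT IP and 0.392 and 0.465 in KO IP. The sites moved together and by like amounts in both fractions, with a pair difference of -0.06 in IP (limma adjusted p = 0.488). YRA1, an mRNA export adaptor, changed by 0.66 upstream and 0.53 downstream. PLP2, a folding cofactor whose sites lie 3 nt apart as ACAACA, changed by 0.48 and 0.49. PRD1, a metallopeptidase, changed by 0.61 and 0.55, with a KO IP spread downstream from 0.0245 to 0.406.

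Regulators of meiosis held few tested pairs. The gene of IME1, which switches on meiotic entry, held 1 pair, 4 nt apart (chromosome 10, positions 620321 and 620317 on the minus strand, offsets +141 and +145). Its upstream site read 0.791 and 0.849 in WT input, 0.473 and 0.461 in KO input, 0.836 and 0.636 in WT IP and 0.361 and 0.448 in KO IP. Its downstream site read 0.897 and 0.866 in WT input, 0.914 and 0.844 in KO input, 0.888 and 0.947 in WT IP and 0.918 and 0.751 in KO IP. The upstream site was higher in WT and the downstream groups overlapped, and the pair difference passed in input, at -0.35 (limma adjusted p = 0.04), and not in IP, at -0.25 (limma adjusted p = 0.1).

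RIM4, an RNA-binding repressor of translation in meiosis, had 4 pairs, of which 2 were measured in full. At offsets +1294 and +1298 the pair difference changed by 0.22 in input (limma adjusted p = 0.022) and 0.13 in IP (limma adjusted p = 0.111). At offsets +2267 and +2282 it did not pass in either fraction. At +673 a RIM4 site that was tested alone read 0.155 and 0.130 in WT input, 0.878 and 0.936 in KO input, 0.246 and 0.252 in WT IP and 0.862 and 0.855 in KO IP. It was low in all 4 WT libraries and changed by -0.61 (SE 0.0279, adjusted p = 9.83e-05) in IP (limma). RME1, a repressor of IME1, had 1 pair that was measured in KO input only. IME4 had 4 pairs, none measured in every library, and the KO libraries held 1 value among their 8 sites. NDT80 and IME2 had no member pair.

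Gene groups of meiosis and growth were counted over their members, from lists that were chosen with earlier results known. The recombination and synapsis list had 193 members among 912 sites in 46 genes, and 89 were tested: in IP, WT was lower at 18, higher at 23 and not called at 48, with a median change of 0.00438, against a median of 0.0089 over all tested sites. Its shares of 20.2% lower and 25.8% higher lay near the 17.0% and 24.3% over all tested sites. Of its 31 tested pairs, 9 were positive and 9 negative in IP (29.03% each, against 23.9% and 28.0% of all tested pairs), and 12 positive and 4 negative in input (38.7% and 12.9%, against 19.6% and 24.7%). Those backgrounds cover all distances. The 821 pairs within 30 nt were 32.3% positive and 16.4% negative in IP, and 29.6% and 12.2% in input. HOP2, needed for pairing of homologues (+460 and +467), had a downstream site at 0.462 and 0.434 in WT input, 0.167 and 0.172 in KO input, 0.692 and 0.726 in WT IP and 0.246 and 0.226 in KO IP and a pair change of 0.57 in IP (limma adjusted p = 0.00061). SGS1, the RecQ helicase (+4122 and +4132), had a downstream site at 0.824 and 0.858 in WT input, 0.800 and 0.629 in KO input, 0.214 and 0.160 in WT IP and 0.783 and 0.717 in KO IP, low in WT IP alone, and a pair change of -0.49 (limma adjusted p = 0.000925).

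The meiotic entry list had 21 tested members, 1 lower and 8 higher in WT IP, and 8 tested pairs, of which 2 were positive in IP and 6 did not pass. The shares were 4.76% lower and 38.1% higher among members, beside 17.0% and 24.3% over all tested sites, and nothing is read from counts this small. The positive pairs were in SUM1, a repressor of middle meiotic genes, with 0.38, and UME6, a repressor of early meiotic genes, with 0.24 (limma adjusted p = 0.0225 and 0.00843). The middle meiotic list had 17 tested members, 3 lower and 3 higher (17.6% each), and 6 tested pairs. Among them SPO1, a phospholipase homologue needed for spindle pole duplication (+1930 and +1946), had an upstream site at 0.668 and 0.696 in WT input, 0.848 and 0.894 in KO input, 0.217 and 0.277 in WT IP and 0.882 and 0.893 in KO IP and a pair change of 0.43 in IP and -0.20 in input (limma adjusted p = 0.00103 and 0.0306). The list of m6A machinery genes had 22 members. The 1 tested, in DYN2, a dynein light chain named after its value was seen, was lower in WT, with changes of -0.188 in IP and -0.426 in input.

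The acetate and TCA cycle list had 86 tested members, 16 lower and 26 higher in WT IP, and 37 tested pairs, 14 positive and 6 negative. These were 18.6% and 30.2% of its members, against 17.0% and 24.3% of all tested sites. Of its pairs they were 37.8% and 16.2%, against 23.9% and 28.0% of tested pairs at all distances. The 821 pairs within 30 nt stood nearer, at 32.3% positive and 16.4% negative, so no trait of this list is read from the split. CIT3, a mitochondrial citrate synthase isoform (+671 and +691), had an upstream site at 0.788 and 0.692 in WT input, 0.944 and 0.917 in KO input, 0.406 and 0.530 in WT IP and 0.937 and 0.917 in KO IP and a downstream site at 0.796 and 0.756 in WT input, 0.283 and 0.390 in KO input, 0.861 and 0.881 in WT IP and 0.460 and 0.592 in KO IP, and its pair difference changed by 0.80 (limma adjusted p = 0.000261). ACH1, an acetyl-CoA hydrolase (+1274 and +1297), had an upstream site at 0.441 and 0.406 in WT input, 0.794 and 0.798 in KO input, 0.0689 and 0.0565 in WT IP and 0.817 and 0.829 in KO IP and a pair change of 0.78 (limma adjusted p = 0.000254). Ribosomal protein genes had 87 tested members, 12 lower (13.8%) and 27 higher (31.03%), and 32 tested pairs, 8 positive and 5 negative (15.6%), beside the same backgrounds. RPL34A and RPL24A, both with a close copy that may share reads, changed by 0.70 and -0.48 (limma adjusted p = 0.00302 and 0.0006).

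Fewer members differed between IP and input than between WT and KO. In WT, 661 members differed between IP and input (22.5%), 299 lower and 362 higher in IP, against 20.9% of all tested sites, 8.43% lower and 12.4% higher. The direction of this split turned with the scale: 227 were lower and 176 higher of 403 on the logit scale, 344 lower and 235 higher after quantile normalization, and 378 lower and 216 higher after median centring. Shares over all tested sites on these scales are not given here, so the turn is not read as particular to members. In the same contrast 225 pairs changed their difference (27.4%), 133 negative and 92 positive, against 25.9% of all tested pairs, 13.6% negative and 12.3% positive. The pair count was 107 on the logit scale, 144 without WT input replicate 1 and 149 without WT IP replicate 2. Among overlapping pairs in WT, the upstream site was higher in IP than in input in 28 of 81 (34.6%, against 13.2% of upstream sites over all neighbouring pairs) and lower in 3, with a median change of 0.123, and the downstream site was higher in 7 and lower in 4. In KO, 58 members (19 lower and 39 higher, or 33 lower and 17 higher after median centring) and 11 pairs passed, against 1.68% of all sites and 1.08% of all pairs, and leaving out any 1 library left 0 to 9 members and 0 or 1 pair (limma, with 494 members and 175 pairs at an unadjusted p under 0.05 in the full set).

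Whether the genotype difference itself differed between IP and input was tested as an interaction. It passed for 272 members (9.27%), 171 negative and 101 positive, against 7.75% of all tested sites, 4.31% negative and 3.43% positive. The member count fell to 60 on the logit scale, to 6 without KO input replicate 1 and to 11 without KO input replicate 2, and it was 172 to 180 without WT IP replicate 2 or either KO IP replicate. It passed for 78 pairs (9.50%), 41 negative and 37 positive, against 9.53% of all tested pairs, 5.13% negative and 4.4% positive. With limma, the pair count fell to 7 on the logit scale, to 0 without KO input replicate 1 or 2, where 160 pairs had an unadjusted p under 0.05, to 42 without WT IP replicate 1, 48 without WT IP replicate 2, and 50 without WT input replicate 1 or KO IP replicate 1.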

How the data were processed

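Cleavage was measured in 8 libraries of polyadenylated yeast RNA. The authors deposited a fraction per ACA site and library, a normalized cleavage efficiency; its formula, minimum depth, normalization and genome build are not given in the sources used here. No counts accompany the fractions, so depth is unknown and no interval was computed. Per the submitters' processing notes, STAR 2.5.3a and bedtools 2.26.0 were used; their roles are not stated.

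The table had 77601 lines, and the first line was kept at the 1241 positions with several lines, of which 107 held differing values. Coordinates are the table's own. Offsets, written as +281, are distances in nt from where the gene model starts. Exon, intron and UTR were not analysed here. Locus names were matched to RefSeq's R64 table for names only (5704 of 6104 models matched).

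Sites measured in all 8 libraries were fitted on the fraction (limma 3.58.1, R 4.3.3) with the 4 group means and Benjamini-Hochberg adjustment over all 17361 sites; downstream minus upstream was fitted in the same way over all 10958 neighbouring pairs. The pair fit for WT against KO in IP was tested on simulated data with 200 of 10958 pairs changed. It recovered 78% of pairs at a change of -0.6, 48% at -0.4 and 0% at -0.2 and at -0.1. Of its calls, 4.55% were false. In the data 51.9% of all tested pairs passed, so the simulated setting differed. Medians per library were compared with exact sign-flip and permutation tests. The labels call the replicates biological. Deviations of same-numbered libraries correlated weakly, and the numbers were not used as pairs. The correlation was highest between input and IP of the same genotype, at 0.0788 in WT and 0.0511 in KO. Between the other groups it was -0.0166 to 0.0110. Whether input and IP of a replicate shared a culture was not tested.

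Named pairs are, with 1 pair per model: the 8 most negative and 8 most positive changes of downstream minus upstream in IP and the 3 of each in input, among those that passed with WT and KO not overlapping; the 6 both lower, 4 both higher and 4 opposite with the largest smaller change in IP; every pair of 6 meiotic regulators; and up to 2 more per gene list. The members, lists and tests were chosen with earlier results of these data known.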

Additional observations from a re-analysis of the deposited data

Results flagged for a closer look

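Whether WT and KO differed by unlike amounts in IP and in input was tested for the difference between the sites of each pair, as the interaction of the limma fit. It passed for 78 of the 821 tested pairs (9.50%), against 9.53% of all tested pairs. The count was 7 on the logit scale and 0 without KO input replicate 1 or 2 (limma, with 160 at an unadjusted p under 0.05). The values of the described pairs that passed with all libraries follow, as the change in IP minus the change in input. Negative values, where the change of downstream minus upstream was lower in IP than in input, were found for ERG25 (-0.972), CIT1 (-0.847), REG1 (-0.769), MHF2 (-0.677), KEX1 (-0.565), IDH1 (-0.563), YRA1 (-0.498), CDC48 (-0.403), SGS1 (-0.392) and SDH9 (-0.338). Positive values, where it was higher in IP than in input, were found for SPO1 (0.629), ERG6 (0.578), TEF1 (0.491), TEF2 (0.463), HEF3 (0.451) and CPR5 (0.276). TEF1 and TEF2 are near-identical genes and count as 1 observation. In ERG25, SGS1 and CIT1 the downstream site was low in WT IP alone.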

How the results depend on the processing

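Among named pairs, 50 pairs were refitted in 988 alternatives for WT against KO in IP: 953 kept their direction and side of the threshold, 27 (in 6 pairs) no longer passed and 7 passed newly. The HMG2 pair reversed on the logit scale, to -0.495 (limma adjusted p = 0.529); the cause was not tested.

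Other distance limits change how many members are counted. The counts of calls from here on are given without the number tested or the share over all sites or pairs under each setting. They describe how counts moved, and a larger count is not by itself a stronger result. Member sites called within 10 nt and within 50 nt were 472 and 2078 for the genotypes in IP, 411 and 1638 for the genotypes in input, 259 and 1046 for IP against input in WT, 23 and 97 for the same contrast in KO, and 100 and 427 for the interaction. Pairs called were 159 and 651, 140 and 561, 86 within 10 nt, 2 and 22, and 27 and 122 in the same order. Within 20 nt, 38 members and 6 pairs were called for IP against input in KO and 46 pairs for the interaction.

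On the logit scale 403 members and 107 pairs were called for IP against input in WT, 2 pairs in KO, and 60 members and 7 pairs for the interaction. With sites measured in at least 6 of 8 libraries, more pairs could be tested, and pairs called were 643 for WT against KO in IP, 586 in input (91 of them overlapping) and 354 for IP against input in WT, while 36 members and 1 pair were called in KO. Fits on only the 4 libraries of a contrast called 329 members and 112 pairs for IP against input in WT; the KO fit called 0 and 0 (limma, with 539 and 185 at an unadjusted p under 0.05). Sites measured in those 4 libraries and fitted alone, an alternative chosen after seeing the data, gave 2094 members, 1067 pairs and 162 overlapping pairs for WT against KO in input, and 0 members and 0 pairs for IP against input in KO (747 and 272 unadjusted).

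The IP against input counts in KO were also unstable under a mean of at least 0.1 (26 members), quantile normalization (3 pairs), a robust prior (37 members, 7 pairs) and no site at 0.99 or above (18 pairs). The replicate block left 1 member and 2 pairs there and 158 members for the interaction, and moved no other count by over 1.5 times. The downstream excess over all libraries passed with sites of mean at least 0.1 (0.0571), the 1 of 20 alternatives that changed its result. Its lowest mean under an alternative was -0.00089. Overlapping pairs in IP stayed within 1.5 times of 57 in all 20 alternatives.

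Leaving out 1 library gave, for WT against KO in IP, 1026 to 1284 members, 317 to 408 pairs and 45 to 59 overlapping pairs; in input, 507 to 1028, 192 to 350 and 42 to 61; for IP against input in WT, 463 to 691 members and 144 to 229 pairs; in KO, 0 to 9 and 0 to 1; and for the interaction, 6 to 262 and 0 to 58. The members' excess in efficiency was 0.0402 to 0.0484, the downstream excess 0.0255 to 0.0368 and the difference in percent measured -0.163 to 0.344.

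Precision is limited by 2 replicates per group and unknown depth. P-values measure the spread between these replicates. Only 11.9% of pairs were measured in every library.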
